A study of Mus musculus with 7 samples.

Results

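The interval of Chr15 between 79 and 87 Mb (GRCm38) holds *Pdgfb* and *Wnt7b*, which the study followed up among the genes linked to the 129P2 susceptibility, and *Fbln1*, which lies between them. In all, 144 protein-coding genes of GENCODE start in it. All H3K27-Ac peaks whose midpoint lies in these 8 Mb were taken, and clone 1 contributed 281 of its 29182 peaks, clone 2 contributed 675 of 49587 and clone 3 contributed 251 of 29277. The cells are tumour clones of *Cdkn2ab*-/- mice on a backcross of FVB and 129P2, each grown from a different skin tumour. All clones lack *Cdkn2ab*, so there is 1 genotype, no treated group and no normal skin to compare with, and each list describes a single clone selected in culture. There were 4 H3K27-Ac libraries, of which the 2 of clone 3 were pooled by the authors, and 3 IgG libraries, of clones 1 and 3. The spread is given over the 3 clones. Where values of the interval are set beside those of the whole list of the same clone, an exact permutation test over the clones could not go below p = 0.25, and no test was made.

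H3K27-Ac is the acetylation of lysine 27 on histone H3, placed by the acetyltransferases p300 and CBP at active promoters and enhancers. Most housekeeping genes start in a CpG island, a stretch where the dinucleotide CG has not been lost, and these starts carry the mark in nearly every cell type, whereas the starts of tissue-restricted genes carry it only where the gene is active. Dense groups of marked enhancers, called super-enhancers when they rank highest, often lie near genes that define the identity of a cell.

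A peak was assigned to a promoter when it lay within 1 kb of any GENCODE transcription start, otherwise to a gene body or to intergenic sequence. The sequences around starts that stand for the main patterns of the interval are shown from 250 bases before the RefSeq start to 50 bases after it (RefSeq, GRCm38.p6), with each CG in capitals. *Ddx17* and *Maff* had strong promoter peaks in all 3 clones, and *Chadl* had one in clone 2 alone, at another of its starts. *Scube1* and *Cyp2d40* lie in the longest stretches between neighbouring peaks of the interval.
*Ddx17* (chr15:79546692-79546991, minus strand): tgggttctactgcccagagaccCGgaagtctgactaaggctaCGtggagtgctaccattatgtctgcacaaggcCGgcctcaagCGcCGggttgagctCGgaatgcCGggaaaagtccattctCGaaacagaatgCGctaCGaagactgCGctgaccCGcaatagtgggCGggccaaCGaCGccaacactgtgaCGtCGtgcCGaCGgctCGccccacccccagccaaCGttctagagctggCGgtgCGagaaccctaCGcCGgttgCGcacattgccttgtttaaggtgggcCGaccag
*Maff* (chr15:79346371-79346670, plus strand): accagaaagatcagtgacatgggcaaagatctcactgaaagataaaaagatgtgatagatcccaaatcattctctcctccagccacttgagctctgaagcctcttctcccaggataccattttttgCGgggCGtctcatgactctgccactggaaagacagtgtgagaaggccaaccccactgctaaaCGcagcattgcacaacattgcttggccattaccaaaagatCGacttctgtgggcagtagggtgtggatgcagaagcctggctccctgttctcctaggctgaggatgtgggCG
*Chadl* (chr15:81697238-81697537, minus strand): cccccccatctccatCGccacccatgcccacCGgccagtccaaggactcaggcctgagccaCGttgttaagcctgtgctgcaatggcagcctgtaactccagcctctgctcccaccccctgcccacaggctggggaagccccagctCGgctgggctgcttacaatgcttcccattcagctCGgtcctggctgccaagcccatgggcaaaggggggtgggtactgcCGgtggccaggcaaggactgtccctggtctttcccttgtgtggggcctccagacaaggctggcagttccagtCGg
*Scube1* (chr15:83724990-83725289, minus strand): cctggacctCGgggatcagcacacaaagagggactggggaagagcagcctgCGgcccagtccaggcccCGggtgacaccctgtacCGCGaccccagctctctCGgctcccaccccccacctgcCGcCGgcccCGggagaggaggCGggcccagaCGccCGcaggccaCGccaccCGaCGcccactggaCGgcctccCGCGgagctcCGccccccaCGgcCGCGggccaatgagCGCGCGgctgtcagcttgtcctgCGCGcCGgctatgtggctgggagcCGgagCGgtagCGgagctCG
*Cyp2d40* (chr15:82764073-82764372, minus strand): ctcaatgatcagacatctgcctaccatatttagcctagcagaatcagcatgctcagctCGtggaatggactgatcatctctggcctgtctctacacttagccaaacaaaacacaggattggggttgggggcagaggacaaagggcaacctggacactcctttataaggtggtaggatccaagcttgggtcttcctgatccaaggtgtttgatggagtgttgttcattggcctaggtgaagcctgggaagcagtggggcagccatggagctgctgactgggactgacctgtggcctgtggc
The *Chadl* start shown lay 2.39 kb from the nearest peak of clone 2 and 31.4 and 31.9 kb from those of clones 1 and 3, and thus had no peak within 1 kb itself. These sequences hold 27, 5, 7, 32 and 1 CG, which is a ratio of observed to expected CG of 0.978 for *Ddx17*, 0.263 for *Maff*, 0.227 for *Chadl*, 0.764 for *Scube1* and 0.0496 for *Cyp2d40*. A ratio of at least 0.6 was found in 35.8% of all 32851 RefSeq promoters of this length. The *Maff* start shown lay 0.027, 0.078 and 0.206 kb from the nearest peak of clones 1, 2 and 3, so that no peak covered it. *Scube1* had a dense start without a peak, and *Maff* a sparse start with a peak close by in each clone. The CG content of a start and a promoter peak thus did not go together at every gene. The CG content under the *Maff* peaks was not measured. RefSeq promoters were at hand for 108 of the 144 genes of the interval.

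The interval was dense in peaks, with 35.1, 84.4 and 31.4 per Mb in clones 1, 2 and 3, against 13.1, 24.0 and 14.0 per Mb on the rest of Chr15. It was also dense in genes, with 144 protein-coding genes in its 8 Mb against 641 on the whole rest of Chr15. The part of gene density in the density of peaks was not tested. Peaks covered 3.67%, 7.03% and 2.95% of its bases. Promoters held 114, 208 and 116 of the peaks, which is 40.6%, 30.8% and 46.2% or 39.2% ± 7.79 (SD, n = 3 clones). In the whole lists promoters held 47.4%, 37.1% and 45.8%. The share in gene bodies was higher in the interval than in the whole list of each clone, with 45.9% against 34.5% in clone 1, 55.9% against 45.8% in clone 2 and 41.4% against 33.8% in clone 3. The intergenic share was lower in all clones, with 13.5%, 13.3% and 12.4% against 18.2%, 17.1% and 20.4%.

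**Figure D1:**
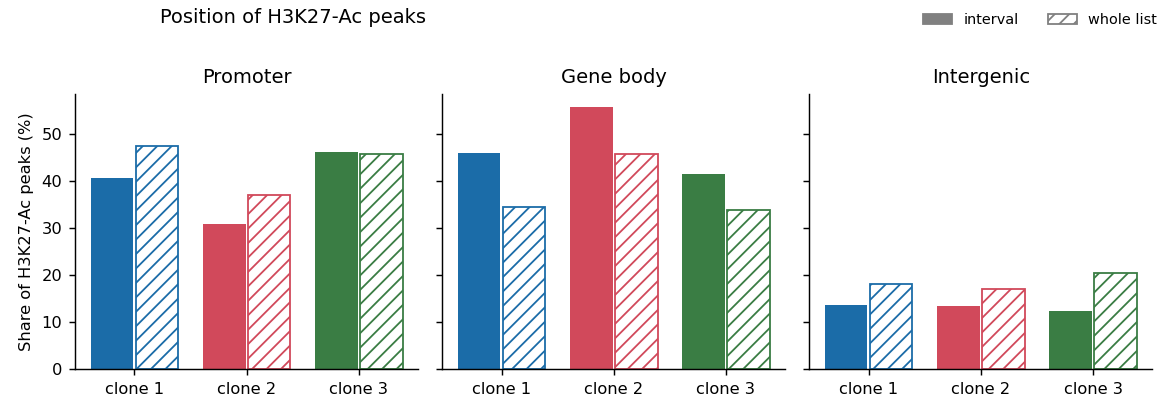
Share of H3K27-Ac peaks (%) at promoters, in gene bodies and in intergenic sequence for each clone, in the interval (filled bars) and in the whole list (hatched bars). The gene body bars of the interval stand above those of the whole list in each clone, by 45.9% against 34.5% in clone 1.

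The weakest peaks of the interval rested on 17, 13 and 28 ChIP reads at the summit in clones 1, 2 and 3. In the whole lists the lowest values were 13, 12 and 25 reads. Peaks were called against the local background, so that these values are no fixed limits, but weaker sites can be missing from a list. Within the interval the medians were 40, 34 and 61 reads and the highest values 324, 467 and 266 reads. The 467 reads were also the highest of the whole list of clone 2. The control background under the interval's peaks exceeded that of other autosomes by a factor of 1.35, 1.28 and 1.30 in clones 1, 2 and 3. The study describes a gain of the FVB/N copy of Chr15 in these cell lines. A higher background raises the number of reads that a peak needs and more copies of a chromosome give more reads, and the part of either in the counts of the interval and in its comparison with other chromosomes was not tested. At 119 summits that clones 1 and 2 share in the interval the backgrounds of the 2 lists had a Pearson's r of 0.929 and a Spearman's rho of 0.887 across summits, against -0.0652 and 0.0544 between clones 1 and 3, so that clones 1 and 2 do not have separate control values here. The summits of a pair of lists share their libraries, and these correlations are given as a description.

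The count of clone 2 stood apart from the other clones more in the interval than elsewhere. It had 2.40 times the peaks of clone 1 in the interval and 1.70 times in the whole list. At promoters the ratio was 1.82 in the interval and 1.33 in the whole list, and in gene bodies 2.92 and 2.26. With the same number of peaks taken from each clone, those with the highest −log10 p, the interval held 281, 370 and 251 peaks. The ratio was then 1.32 in the interval, where the whole lists were of equal length by construction. Along the interval the ratio was lowest between 84 and 85 Mb with 18 and 34 peaks, and highest between 86 and 87 Mb with 19 and 67.

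Overlapping peaks of the clones formed 687 regions in the interval, of which 154 or 22.4% were found in all 3 clones, where 27.3% of the regions of all chromosomes were. A further 72 were found in 2 clones and 461 in 1. Clone 2 alone accounted for 419 regions, or 61.0%, against 43.7% on all chromosomes, while clones 1 and 3 had 24 and 18 of their own. The peaks of the regions found only in clone 2 had a median of 27 reads and a width of 414 bp, with no more than 99 reads, whereas the clone 2 peaks of regions found in all clones had a median of 141 reads and 1281 bp. The regions that clone 2 adds are thus the weaker part of its list. Of the 203 promoter regions 93 or 45.8% were found in all clones, against 54.8% on all chromosomes.

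Clones 1, 2 and 3 had a promoter peak at 88, 104 and 85 of the 144 protein-coding genes, or 61.1%, 72.2% and 59.0%. Over all 21755 protein-coding genes of chromosomes 1 to 19 and X the background was 50.2%, 57.3% and 48.5%. A peak in all 3 clones was found for 83 genes (57.6%, background 46.9%), in 2 clones for 6 (4.17%, background 4.37%), in clone 2 alone for 15 (10.4%, background 6.2%) and in no clone for 39 (27.1%, background 42.1%). Clone 3 alone had 1 gene and clone 1 none. On the rest of Chr15 54.1% of 641 genes had a peak in all clones and 33.9% in none. The gene counts include *Gcat* under 2 identifiers and the genes *Gm49486*, which starts 0.218 kb from *Pick1* and shares its peaks, and *AC140267.1*, whose strongest peaks in clones 1 and 2 are also those of *Mief1*.

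The 83 genes with a peak in all clones rest on 74, 75 and 74 different strongest peaks in clones 1, 2 and 3, because 8 pairs of genes had the same strongest peak in all lists and *Polr2f* and *1700088E04Rik* had the same one in clones 1 and 3. The 8 pairs include *Fam227a* and *Cby1*, *St13* and *Xpnpep3*, and *Zc3h7b* and *Rangap1*, whose outermost starts lie 0.243, 0.061 and 0.473 kb apart. *Xrcc6* and *Desi1* also share a peak although their outermost starts are 46.0 kb apart, since any annotated start counts. For such pairs the reads cannot be assigned to one of the genes.

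The strongest shared promoters were those of *Ddx17*, an RNA helicase, *Maff*, a small Maf transcription factor, *Sun2*, a protein of the inner nuclear membrane, *Atf4*, the transcription factor of the integrated stress response, *Ep300*, which encodes the acetyltransferase p300 itself, *Josd1*, a deubiquitinase, and *Tef*, a bZIP transcription factor. *Ddx17* (ENSMUSG00000055065.7, start at 79546741 on the minus strand) had 324 ChIP reads at the summit in clone 1, 458 in clone 2 and 266 in clone 3, with a fold enrichment over the background of 34.6, 49.3 and 20.2. *Maff* had 297, 458 and 245 reads, and *Sun2* 315, 430 and 250. *Ep300* (ENSMUSG00000055024.12, start at 81585351 on the plus strand) had 317, 467 and 187 reads, of which the value of clone 2 was the highest of its whole list. *Atf4* had 300, 456 and 219 reads, *Josd1* 301, 443 and 207, and *Tef* 246, 436 and 229. The eighth place was shared by the pair *St13* and *Xpnpep3* (227, 397 and 206 reads) and by *Snu13* (226, 399 and 206 reads), a protein of the spliceosome. Each of these promoters had more reads than the median shared promoter, which had 153, 281 and 123 reads. Clone 2 was highest and clone 3 lowest at each, but reads depend on the depth of a library, so that levels are compared only within a list.

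At the weak end of the shared promoters *Baiap2l2* had 20, 82 and 31 reads, and *Mgat3*, a glycosyltransferase gene, had 22, 196 and 67. The order of the 83 genes by reads was similar in the 3 lists, with a Spearman's rho across genes of 0.879 between clones 1 and 2, 0.860 between clones 1 and 3 and 0.875 between clones 2 and 3. Genes that share a peak each count in it. At 61 regions away from promoters that all clones share the rho was 0.386, 0.498 and 0.372.

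**Figure D2:**
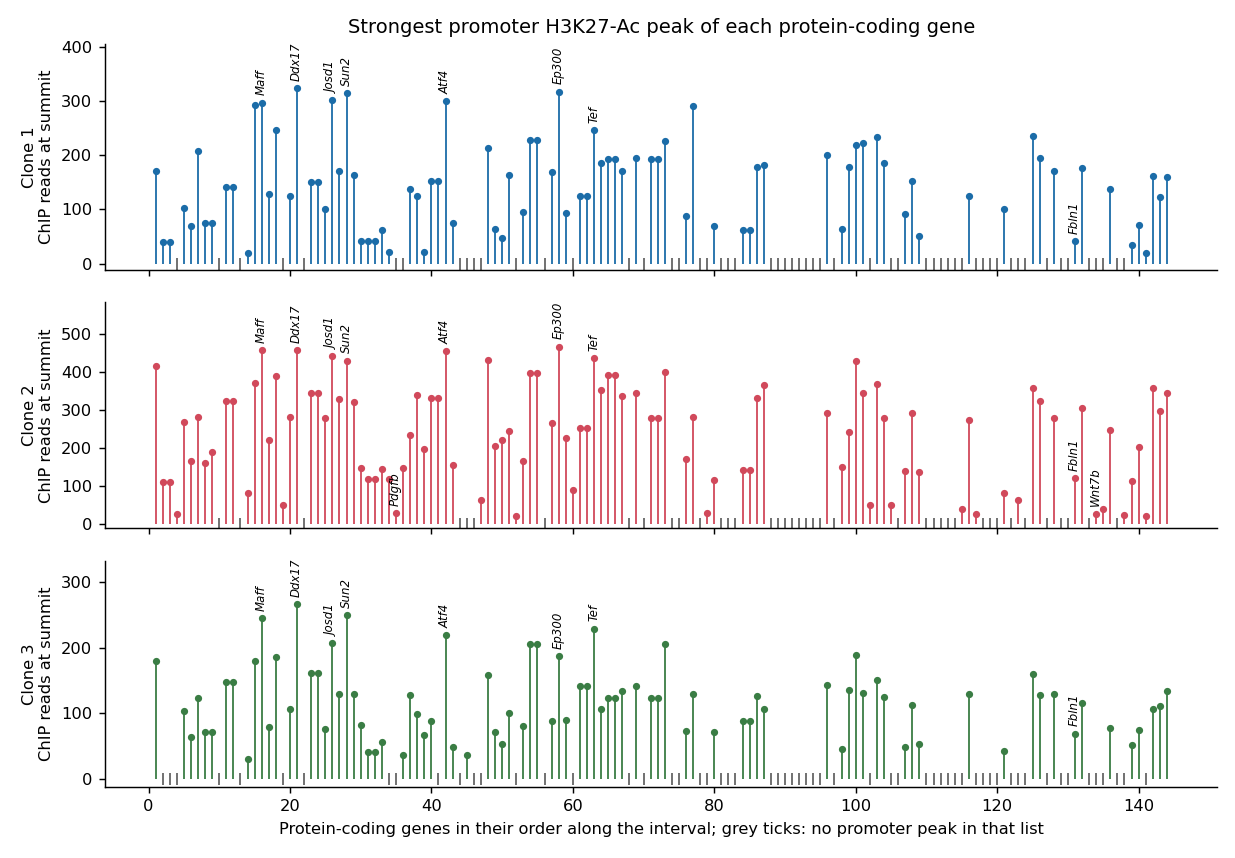
ChIP reads at the summit of the strongest promoter H3K27-Ac peak of each of the 144 protein-coding genes, in their order along the interval, with 1 panel for each clone; grey ticks at the base mark genes without a promoter peak in that list. The strongest promoters stand out in the 3 panels, with *Ddx17* at 324, 458 and 266 reads, and *Pdgfb* and *Wnt7b* have a peak in clone 2 only.

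The genes were set in groups by what they are known to do, and the count of each group stands beside the 57.6% of all genes of the interval and the 46.9% of all protein-coding genes that had a promoter peak in all clones. All 10 genes of RNA processing and translation had a promoter peak in all clones, from *Eif3l* (70, 166 and 64 reads), an initiation factor subunit, to *Ddx17*. Of the 18 genes of mitochondria and metabolism 17 had one, and *Gcat*, which encodes an enzyme of threonine breakdown, had 40 reads in clone 1, 110 in clone 2 and no peak in clone 3. Its nearest domain in clone 3 lay 2.27 kb from the start. The strongest of this group was *Pla2g6*, a phospholipase, with 292, 370 and 180 reads.

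Of the 17 genes of transcription and chromatin 13 had a promoter peak in all clones. *Cbx7*, a Polycomb protein, had 22 reads in clone 1, 118 in clone 2 and no peak in clone 3, while its neighbour *Cbx6* had 41, 118 and 41 reads at a peak that it shares with *Npcd*. *Phf21b* (64 reads) and *Ppara* (40 reads), the nuclear receptor of fatty acid oxidation, had a peak in clone 2 alone. *Sox10*, the transcription factor of neural crest and melanocytes, had none in any list, and the nearest peak to its start was 23.3, 2.47 and 23.4 kb away. *Srebf2*, the regulator of cholesterol synthesis, had 290, 282 and 130 reads.

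Among the 14 genes of signalling 5 had a promoter peak in all clones, 1 in 2 clones, 5 in clone 2 alone and 3 in none. The 5 shared ones were *Csnk1e* (247, 389 and 185 reads), a casein kinase of the Wnt and clock pathways, *Cby1* (151, 346 and 161 reads), an antagonist of β-catenin, *Tab1* (124, 340 and 99 reads), a partner of the kinase TAK1, *Prr5* (100, 81 and 42 reads), a subunit of mTORC2, and *Fbln1* (41, 121 and 69 reads), the extracellular matrix protein fibulin-1. *Csnk1e* had 11 promoter peaks in clone 2, against 2 in clone 1 and 1 in clone 3. *Celsr1*, a receptor of planar cell polarity, had weak peaks in clones 1 and 2, with 19 and 20 reads. The 5 genes with a peak in clone 2 alone were *Wnt7b* (27 reads), *Pdgfb* (28 reads), *Tnfrsf13c* (28 reads), *Galr3* (27 reads) and *Mchr1* (20 reads). At *Wnt7b* the nearest peak of clone 2 lay 1.13 kb from the outermost start. Its promoter peak thus counts through another annotated start of the gene. The exact 95% Poisson interval of the 27 reads of *Wnt7b* is 17.8 to 39.3 reads, which covers counting error only. *Grap2* and *Nfam1*, genes of leukocyte signalling, and *Scube1*, a secreted EGF-domain protein, had no promoter peak.

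Of the 10 genes of the cytoskeleton and adhesion 6 had a promoter peak in all clones, a share near that of the interval, led by *Sun2* and *Arfgap3* (234, 369 and 150 reads). *Ttll1* (51 reads) and *Parvb* (27 reads) had one in clone 2 alone, and *Parvg* and *Arhgap8* had none. Of the 10 genes of cell division, DNA repair and genome defence 7 had one in all clones, such as *Nup50* (236, 357 and 160 reads) of the nuclear pore and *Xrcc6* (192, 279 and 123 reads), which encodes Ku70. The other genes of this group, *Dmc1*, *Mei1* and *Smc1b*, act in meiosis and had no promoter peak in any clone.

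The neuronal and tissue-restricted genes were the group with the fewest promoter peaks. Of these 19 genes 1 had a peak in all clones, *Nptxr* (42, 146 and 82 reads), a neuronal pentraxin receptor, and 1 in 2 clones, *Syngr1* (146 reads in clone 2 and 37 in clone 3), a synaptic vesicle protein. *Kcnj4*, *Chadl* and *Pnpla3* had one in clone 2 alone and *Enthd1* in clone 3 alone, with 37 reads. The other 13, among them the calcium channel gene *Cacna1i*, the urothelial gene *Upk3a* and *Sult4a1*, had none. The groups were chosen with earlier results of these data known, and their counts are a description. The tissue-restricted group was formed of genes active in few tissues, so that its low count follows in part from the choice.

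**Figure D3:**
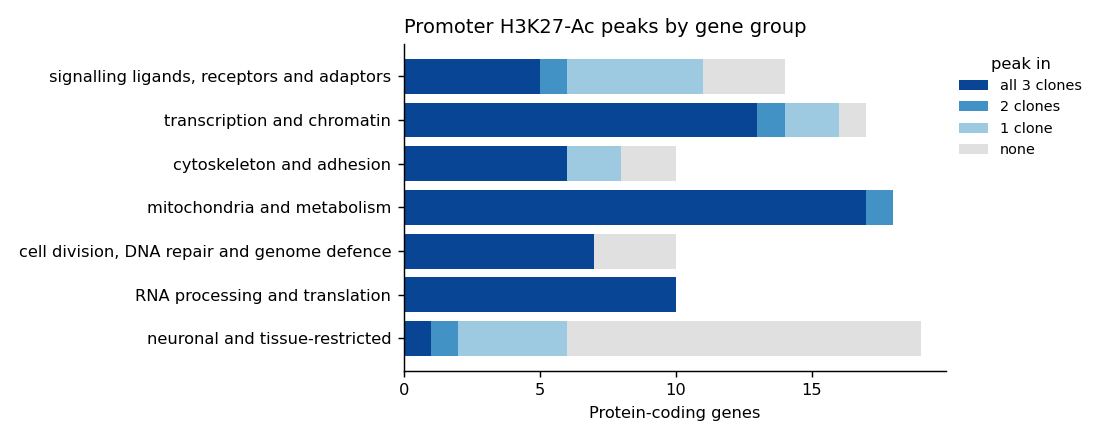
Number of protein-coding genes in each of 7 groups by the clones in which they had a promoter H3K27-Ac peak (dark blue for all 3 clones to grey for none). RNA processing and translation has 10 of 10 genes with a peak in all clones, the neuronal and tissue-restricted group 1 of 19.

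Among the genes with a promoter peak in a single list, those with the most reads were *Chadl* (88 reads), a cartilage matrix protein, *Fam83f* (64 reads), *Phf21b* (64 reads), *A4galt* (51 reads), which makes the glycolipid Gb3, *Ttll1* (51 reads) and *Kcnj4* (49 reads), an inward-rectifier potassium channel, all in clone 2. The 15 genes of clone 2 alone had 20 to 88 reads with a median of 39, and 14 of them had fewer than the 81 reads of the weakest promoter in clone 2 that all clones share. With the same number of peaks per clone 9 of the 15 still had a peak in clone 2 alone, and *Wnt7b*, *Pdgfb*, *Galr3*, *Mchr1*, *Parvb* and *Ttc38* no longer had one in any clone. At a −log10 q of at least 5, 12 of the 15 did.

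Of the 39 genes without a promoter peak 22 belong to these groups and 8 are the *Cyp2d* genes, that is all *Cyp2d* genes that start in the interval, a family of cytochromes P450 of the liver. Near-identical copies share reads, so that an absent peak at a *Cyp2d* gene is uncertain. The other 9 include *Bik*, a BH3-only gene of apoptosis, and *Rtl6*, a gene derived from a retrotransposon.

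The sequence around the starts differed with these patterns. In the 300 bp around the outermost GENCODE start the median ratio of observed to expected CG was 0.838 for the 83 genes with a promoter peak in all clones, 0.803 for the 6 genes of 2 clones, 0.666 for the 16 genes of 1 clone and 0.369 for the 39 genes with none. Of the 90 genes with a ratio of at least 0.6, 70.0% had a peak in all clones and 14.4% in none. Over all protein-coding genes these shares were 75.8% and 13.5%. Of the 54 genes below 0.6, 37.0% had a peak in all clones and 48.1% in none, where all protein-coding genes had 18.4% and 70.3%. A low ratio at the outermost start can go with a peak at another start of the gene, as 12 of the 20 genes below 0.6 with a peak in all clones had one within 1 kb of the outermost start in each list, against 61 of 63 genes above. The 13 genes of at least 0.6 without any promoter peak were *Dmc1*, *Mei1*, *Smc1b*, *Ribc2*, *Cacna1i*, *Shisa8*, *Sept3*, *Sult4a1*, *Pkdrej*, *Scube1*, *Bik*, *Rtl6* and *1700029P11Rik*, which include the 3 meiotic genes of the groups.

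**Figure D4:**
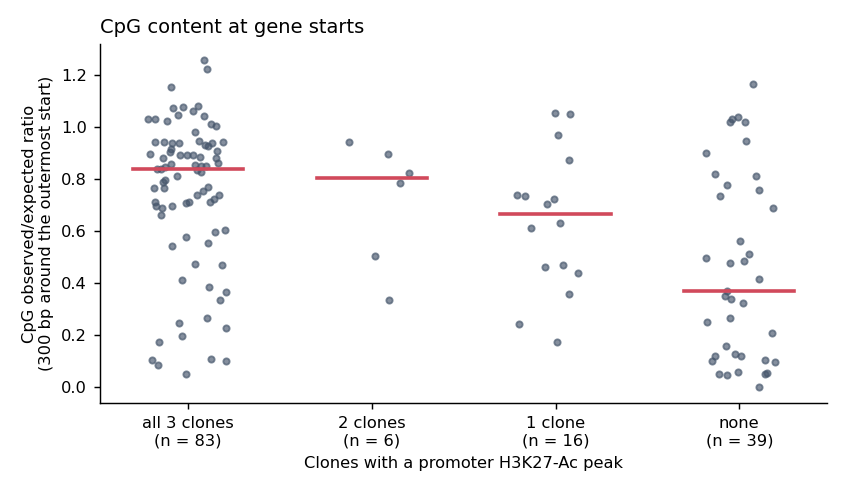
Ratio of observed to expected CG in the 300 bp around the outermost start of each protein-coding gene (points), by the number of clones with a promoter H3K27-Ac peak; red lines are medians. The median is 0.838 for genes with a peak in all 3 clones and 0.369 for genes with none, and both sets span low and high ratios.

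To form domains, neighbouring peaks of a clone were stitched across gaps of up to 12.5 kb, and domains were ranked by the number of bases that their peaks cover. The interval had 100, 121 and 110 domains, of which 41, 51 and 44 were a single peak. Domains of 5 or more peaks made up 16.0%, 31.4% and 10.9% of them, against 7.23%, 12.9% and 4.70% in the whole lists. A fixed gap joins more peaks where they lie closer together, and the part of peak density in these shares was not tested. Domains of the clones that overlap each other formed 127 loci, of which 79 were found in all clones, 8 in 2 and 40 in 1. The domain next to *Wnt7b* held 11.2%, 7.94% and 11.3% of the bases under peaks of the interval, the highest mean share. The 6 loci after it are described in turn.

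The second locus, from 79285337 to 79403935, overlaps *Baiap2l2*, *Pla2g6*, *Maff* and *Tmem184b*. It was a single domain of 41 peaks and 40110 bp under peaks in clone 2, ranked 30th of 18280, but was split into 3 domains with 15150 bp in clone 1 and 5 domains with 12620 bp in clone 3, whose best ranks were 173 of 14560 and 1553 of 16371. At this locus the joining of peaks across clones was thus uneven.

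The third locus, from 83140435 to 83183468, overlaps *Poldip3*, an RNA-binding protein, and *Cyb5r3*, a cytochrome b5 reductase. It was a single domain in each clone, of 14, 19 and 8 peaks and 16784, 22632 and 11070 bp, with ranks of 41, 130 and 50. It was the only one of these 6 loci among the first 150 domains of all clones.

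The fourth, from 81760045 to 81873295, runs over *Zc3h7b*, *Tef*, *Tob2* and *Phf5a*, among others, and had best ranks of 225, 97 and 462. The fifth, from 83375376 to 83483086, lies at *Pacsin2*, a membrane-bending protein of endocytosis, with 15975, 20454 and 10229 bp under peaks and best ranks of 88, 168 and 150. The sixth, from 86054535 to 86145497, overlaps *Gramd4* and *Cerk*, a ceramide kinase, and differed most between the clones, with 9430, 39951 and 6923 bp and best ranks of 242, 31 and 304. The seventh, from 81006380 to 81107137, overlaps *Sgsm3* and *Mrtfa*, the coactivator of serum response factor, with 4164, 19714 and 7929 bp and best ranks of 1239, 177 and 326. Its place rests on clones 2 and 3, since in clone 1 its share was 1.42%, against 2.92% at the locus next in order. The 7 loci together held 37.7%, 38.1% and 35.6% of the bases under peaks of the interval in clones 1, 2 and 3.

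**Figure D5:**
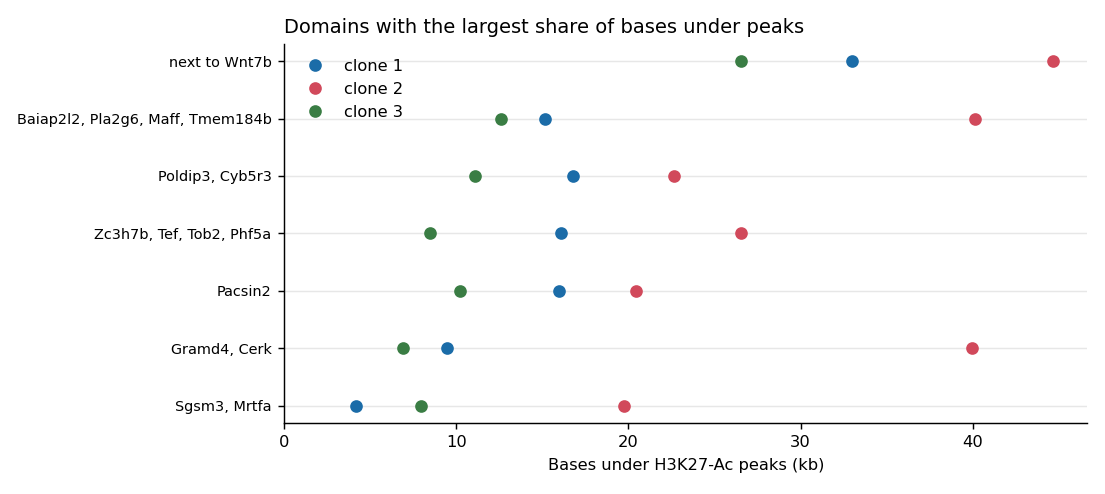
Bases under H3K27-Ac peaks (kb) in each clone (points) at the 7 loci of the interval with the largest mean share, named by up to 4 of the protein-coding genes they overlap. Clone 2 has the most bases at each locus, and its distance from the other clones is widest at *Gramd4* and *Cerk*, with 39951 bp against 9430 and 6923 bp.

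The outermost start of 71, 94 and 64 of the 144 genes was inside a domain in clones 1, 2 and 3, or 49.3%, 65.3% and 44.4%, against 41.4%, 51.8% and 37.6% of all protein-coding genes. None of the 39 genes without a promoter peak started inside a domain, and their median distance to the nearest one was 31.2, 22.5 and 30.1 kb, or 27.9 kb ± 4.73 (SD, n = 3 clones). The rule fixes part of this, since a start inside a domain but more than 1 kb from any peak would be needed. The largest distances were 255.8 kb (*Cyp2d34* in clone 1), 184.0 kb (*Mpped1* in clone 2) and 217.1 kb (*Cyp2d34* in clone 3). *Arhgap8* was among the nearest, at 4.44, 4.50 and 4.71 kb. Of the genes that the study named, *Wnt7b* had nearer domains than the large one, at distances of 16.9, 1.13 and 7.20 kb from its outermost start in clones 1, 2 and 3, made of 3, 5 and 1 peaks with 1500, 2788 and 309 bp. These were small, with ranks of 6091, 3253 and 15638. The nearest domain of *Pdgfb* was 9.20 kb from its start in clone 1 and 9.55 kb in clone 3 and included the start in clone 2, with 1940, 2524 and 5512 bp in clones 1, 3 and 2. *Fbln1* started 0.097 and 0.116 kb from a single peak in clones 1 and 3 and inside a domain of 4 peaks in clone 2.

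Away from promoters 61 regions were found in all clones, 41 in gene bodies and 20 in intergenic sequence, at a median of 23.5 kb from the nearest protein-coding start. The 484 regions away from promoters include these 61, or 12.6%, against 13.8% on all chromosomes. The highest mean rank by reads was shared by 2 regions. One, from 81521636 to 81524801, is intergenic between *Rbx1* and *Ep300*, 56.8 kb from the *Rbx1* start, and had 194, 401 and 129 reads with a fold enrichment of 27.7, 76.5 and 8.79. It had more reads than the median shared promoter in each clone. The other, from 85662089 to 85673387 in the domain next to *Wnt7b*, had 216, 370 and 182 reads, and thus ranked above the first in the lists of clones 1 and 3 and below it in clone 2. The third, from 85634324 to 85635643, belongs to the same domain. The fourth, from 83154321 to 83159265, lies in *Cyb5r3* within the locus of *Poldip3* and *Cyb5r3*, with 100, 231 and 117 reads. The fifth, from 80158376 to 80161790, has its summit in the gene body of *Tab1*, with 115, 239 and 96 reads.

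The AP-1 motif TGANTCA, which Fos and Jun proteins bind, was searched on both strands in the 200 bp around the summit. It was present in 33 of the 484 regions away from promoters, or 6.82%, and in 6.82% of 38784 such regions on all chromosomes. At promoters it was present in 10 of the 203 regions, or 4.93%, against 2.86% on all chromosomes. Among the regions shared by all clones it was present in 6 of 61, or 9.84%, against 8.83% on all chromosomes. Of the other motifs the GC box GGGCGG was in 28.6% of the 203 promoter regions and 5.58% of the others, against 33.1% and 6.90% on all chromosomes, and the TEAD motif GGAATG in 10.3% and 10.95%, against 7.30% and 11.2%. The CRE TGACGTCA, the ETS motif CCGGAAG and the E-box CACGTG were in at most 5.37% of either class. Away from promoters the ETS motif was in 3.31% and the E-box in 5.37% of the regions, against 1.59% and 3.70% on all chromosomes. CCAAT was in 14.3% of promoter regions and in 19.01% of the others, against 11.6% and 18.1% on all chromosomes. The shared region of highest mean rank with an AP-1 match lies in the gene body of *Cbx7*, with 28, 160 and 89 reads. The summits of the region between *Rbx1* and *Ep300* and of this region are shown with the match in capitals (RefSeq, GRCm38.p6).
Region between *Rbx1* and *Ep300* (chr15:81522998-81523197, plus strand): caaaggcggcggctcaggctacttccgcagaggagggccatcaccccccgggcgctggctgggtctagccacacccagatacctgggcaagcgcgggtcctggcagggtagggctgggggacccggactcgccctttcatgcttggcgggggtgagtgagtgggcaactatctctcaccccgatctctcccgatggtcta
Region in an intron of *Cbx7* (chr15:79950644-79950843, plus strand): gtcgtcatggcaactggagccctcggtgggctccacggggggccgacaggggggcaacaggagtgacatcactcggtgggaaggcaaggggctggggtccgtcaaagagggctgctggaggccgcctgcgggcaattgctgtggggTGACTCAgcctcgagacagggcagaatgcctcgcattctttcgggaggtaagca
The first holds no match to TGANTCA in these 200 bases, and the second holds 1, on the plus strand as printed, that begins 46 bases after the summit.

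Of 59 long non-coding genes that start in the interval 17 had a peak within 1 kb of a start in all clones, where 15.1% of 12778 such genes on all chromosomes did, but most of these lie close to a protein-coding start. Of the 36 whose start is over 2 kb from one, 5 had a peak in all clones, against 5.02% on all chromosomes, namely *Gm3924* (23, 87 and 41 reads), *8430426J06Rik* (54, 69 and 63 reads), *Gm15722* (34, 166 and 64 reads), and *Gm49539* and *Lncppara* in the domain next to *Wnt7b*. The microRNA genes *Mirlet7c-2* and *Mirlet7b* lie at the far end of that domain, and a peak covered their start in clone 2, whereas the nearest peaks of clones 1 and 3 were 2.60 and 6.12 kb from *Mirlet7c-2* and 3.32 and 6.83 kb from *Mirlet7b*.

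The longest stretches without a peak in any list held starts of genes without promoter peaks. The longest was 572.2 kb, from 83595546 to 84167719, and holds the starts of *Scube1*, *Mpped1*, *Efcab6*, *Sult4a1* and *Pnpla5*. The next was 321.5 kb, from 82516568 to 82838094, with *Cyp2d12*, *Cyp2d34*, *Cyp2d40* and *Cyp2d26*. The one after it was 227.2 kb, from 84414384 to 84641534, with *Shisal1* and *Rtl6*. The choice of stretches largely fixes this, since a start inside one can have a promoter peak only near its edge or through another start of the gene. A stretch without a peak has no site above the limit of detection and can be unmarked or, in repeated sequence, hard to map. Left out of this order was the end of the interval, which has no peak after 86498079 and no protein-coding start. It is longer than 321.5 kb, as *Gm49468* at 86990519 lay 633.9, 492.4 and 663.6 kb from the nearest peaks of clones 1, 2 and 3.

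The markers of the tumour's cell types were looked up in the whole lists. Of 7 genes of basal keratinocytes and hair germ 3, 2 and 2 had a promoter peak in clones 1, 2 and 3, where 50.2%, 57.3% and 48.5% of all protein-coding genes did. Of the 7, *Cdh3* and *Sox9* had one in all clones, *Krt14* in clone 1 only, and *Krt5*, *Trp63*, *Cdh1* and *Lef1* in none. Of 5 mesenchymal genes 5, 5 and 2 had one, with *Twist1* and *Prrx1* in all clones. None of 3 leukocyte genes had one. The list of keratinocyte genes was thus mixed, with *Krt5* and *Trp63*, which define basal keratinocytes, without a promoter peak, and its part in the patterns of the interval was not tested.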

How the data were processed

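Measured was H3K27-Ac by ChIP-seq in 3 clones, each with 1 list of peaks. Per the paper's methods and the labels, reads were aligned by the authors with Bowtie2 (GRCm38), and MACS2 2.1.1 called the peaks of each clone. Fold enrichment, as deposited, gives the ratio between ChIP pileup and local background at a summit. The −log10 values deposited beside it belong to the p-value and the q-value, and the smallest −log10 q was 1.30, 1.33 and 1.35 in clones 1, 2 and 3. ChIP reads and background were solved from these values for each summit, and the reads lay within 0.000936 read of a whole number, except at 1284 peaks of clone 1 and 1493 of clone 2 with a low background, where the whole number that best gave the deposited p was taken. The solving was checked on simulated data. Peaks outside chromosomes 1 to 19, X and Y were left out, which were 5, 21 and 3 in clones 1, 2 and 3. The software was Python 3.11.15 with scipy 1.17.1, pandas 2.3.3, numpy 2.4.6 and matplotlib 3.10.9, and genes came from GENCODE M21.

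Peaks of different lists counted as shared from 1 bp of overlap. The read totals of the libraries are unknown from these files. The genes named, the groups and the interval were chosen with earlier results of these data known. Named are the genes whose peaks differ from their group, the 8 strongest shared promoters, the 6 strongest of 1 list, 6 domains, 5 regions away from promoters and 3 stretches without peaks. *Baiap2l2*, *Mgat3*, *Srebf2*, other examples in the groups, the *Cyp2d* genes and the non-coding genes were chosen for naming only once their values were known. The alternatives tried were a higher −log10 q of 5, equal numbers of peaks per clone, other windows and joining distances, and the end of the interval at 86 Mb. Further ones were only the outermost start of each gene, a peak that covers the start base, and summits within 250 bp. Other lengths of sequence and leaving out each clone were also tried. Allele counts were not analysed here, and a few genes are not reported here by name.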

Additional observations from a re-analysis of the deposited data

How the results depend on the processing

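Over 81 alternatives to 9 results 69 moved by less than 1 SD over the clones or, where a count was concerned, by less than 1.5 times. Within this limit for counts, the regions shared by all clones fell from 154 to 109 with summits within 250 bp. With only the outermost start of each gene, the genes with a peak in all clones fell from 83 to 73. The genes with none rose from 39 to 50. The share of interval peaks at promoters went from 39.2% to 47.1% at a −log10 q of at least 5 and to 27.04% with only the outermost start of each gene, the latter because fewer starts count. With only this start the median distance of genes without a promoter peak to the nearest domain was 22.5 kb in place of 27.9 kb. The difference in the CG ratio between genes with a promoter peak in all clones and in none, 0.469, was 0.421 with equal numbers of peaks, 0.418 with a window of 2 kb, 0.509 with the outermost start and 0.381 in 1 kb of sequence. The number of domains went from 110.3 per clone to 176 when joined over 5 kb, by the construction of that alternative. The share of regions away from promoters with an AP-1 motif went from 6.82% to 11.2% in 300 bp and 3.51% in 100 bp, as fewer or more bases are searched.

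Leaving out each clone gave 266 to 478 peaks per clone, the lowest without clone 2, and a difference in the CG ratio of 0.356 to 0.470, again the lowest without clone 2. Without clone 2 the number of genes with no promoter peak was 54 in place of 39, and the genes with a peak in all remaining clones numbered 83 to 88. Except where stated above, the cause of a change was not tested. Means rest on few clones, and a peak list holds only sites above its limit of detection.

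No paired comparison of conditions was possible because there is 1 condition, so that no groups share clone numbers. Values of the interval and of the whole list form a pair in each clone. With 3 clones an exact permutation test could not go below p = 0.25, so these values were only set side by side.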
